A study of Mus musculus with 9 samples.

Results

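The genes described here are 43 mouse genes that respond to interferon or act in the presentation of antigen on MHC class I molecules, followed in mouse embryonic fibroblasts (MEFs) with and without a duplication of part of mouse chromosome 16 (Mmu16). They were taken by symbol from a list and not by a rule on their measured values, though earlier results of these data were known. All 43 were matched among the 43629 genes of the count table and passed edgeR's filter on low counts. *Mx1* and *Mx2* lie within the duplicated region and so have 3 copies in the duplicated cells, while the other 41 genes lie outside it and have the usual copy number in both genotypes.

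RNA sequencing was carried out on 9 MEF cultures, each grown from a single E14.5 embryo and passaged before RNA was prepared. WT MEFs came from 4 embryos and Dp1Tyb MEFs from 5 littermate embryos carrying Dp(16Lipi-Zbtb21)1TybEmcf, a duplication of the Mmu16 interval from *Lipi* to *Zbtb21* that is orthologous to human chromosome 21. The strain is labelled C57BL/6J.129P2 for all cultures, and the labels name no treatment with interferon. By their labels, WT replicate 1 and Dp1Tyb replicate 1 form one set, while the second set has 3 WT and 4 Dp1Tyb cultures. MEFs are a mixed population made from the body of an embryo, so in these bulk samples fewer cells of a type and less RNA per cell cannot be told apart.

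Interferons are secreted proteins that warn cells of viral infection. They bind receptors at the cell surface, whose associated kinases JAK1, JAK2 and TYK2 phosphorylate STAT transcription factors. STAT2 and IRF9 are part of a complex that binds the interferon-stimulated response element (ISRE) in the promoters of its target genes, and the gamma-activated site (GAS) is a further element of such promoters. The products of these genes sense viral RNA, block translation, degrade RNA, restrict the release of virus and raise antigen presentation, and many fibroblasts keep them at a low level without infection. Subunits of the interferon receptors are encoded in the duplicated region, which is the reason for looking at their target genes in Dp1Tyb MEFs.

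None of the 43 genes was a differentially expressed gene (DEG) in either direction between Dp1Tyb and WT MEFs. By the edgeR quasi-likelihood test (two-sided, p adjusted by Benjamini-Hochberg over 14567 genes, threshold 0.05), 0 of the 43 were called, against a background of 0.165% of all genes tested (24 genes, all of them higher in Dp1Tyb). The adjusted p of every one of the 43 was 0.9997, and 0 had an unadjusted p below 0.05, where 3.13% of all genes did. With DESeq2 in place of edgeR 0 of the 43 were called, where 0.278% of genes were called and 0.196% were called higher. The unadjusted DESeq2 p was below 0.05 for 1 of the 43, *Mx2*, beside 2.28% of genes. These DESeq2 shares are over 24436 genes, without edgeR's filter on low counts, so they are not on the same footing as the edgeR shares. The fold changes lay on both sides of 0, with 25 of 43 above it. Over the 41 genes outside the duplication the median log2 fold change was 0.02, beside 0.00 over all genes tested, and the values ran from -0.40 for *Psmb9* to 0.65 for *Rsad2*. Most of these genes had a wider spread among cultures than the typical gene. Their log2 normalised counts had a median SD of 0.676 over the 9 cultures, against 0.217 for all genes tested. The spread of 42 of the 43 was above the all-gene median, and that of 22 was above the all-gene 90th percentile of 0.667. It differed by role, with a median SD of 0.29 for the 6 antigen presentation genes. The reference was not matched for expression level. A wide spread was not particular to these genes. Among fibroblast markers, *Dcn* had an SD of 0.849 and *Col3a1* of 0.701, while *Col1a1* had 0.361.

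A single culture stood apart for nearly all of these genes. Dp1Tyb replicate 2 had the lowest level of 42 of the 43 genes (97.7%), whereas it was the lowest culture for 27.0% and the highest for 27.1% of all genes tested. The exception was *Oas3*, which was at 5.79 normalised counts in Dp1Tyb replicate 1 and 6.49 in Dp1Tyb replicate 2. For *B2m* the margin was slight, at 15082 in Dp1Tyb replicate 2 against 15104 in Dp1Tyb replicate 5. The culture next to lowest was WT replicate 2, for 35 of the 43 genes. At the other end, Dp1Tyb replicate 3 was highest for 19 genes and Dp1Tyb replicate 5 for 14, followed by WT replicate 1 for 6, WT replicate 3 for 3 and Dp1Tyb replicate 4 for 1. As a median over the 43 genes, the log2 level relative to the mean of the 9 cultures was 0.32, -0.38, 0.26 and 0.03 in WT replicates 1 to 4. In Dp1Tyb replicates 1 to 5 it was 0.04, -1.42, 0.56, 0.11 and 0.54. Dp1Tyb cultures thus held both the lowest and the highest levels, and the WT cultures lay between them. The corresponding medians over all genes tested were within -0.01 and 0.02 in every culture. The scaling between cultures largely sets those medians, so they do not show that the cultures were otherwise alike. All these levels are normalised counts, that is counts scaled by edgeR's TMM factors, with 1 added before taking log2.

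**Figure D1:**
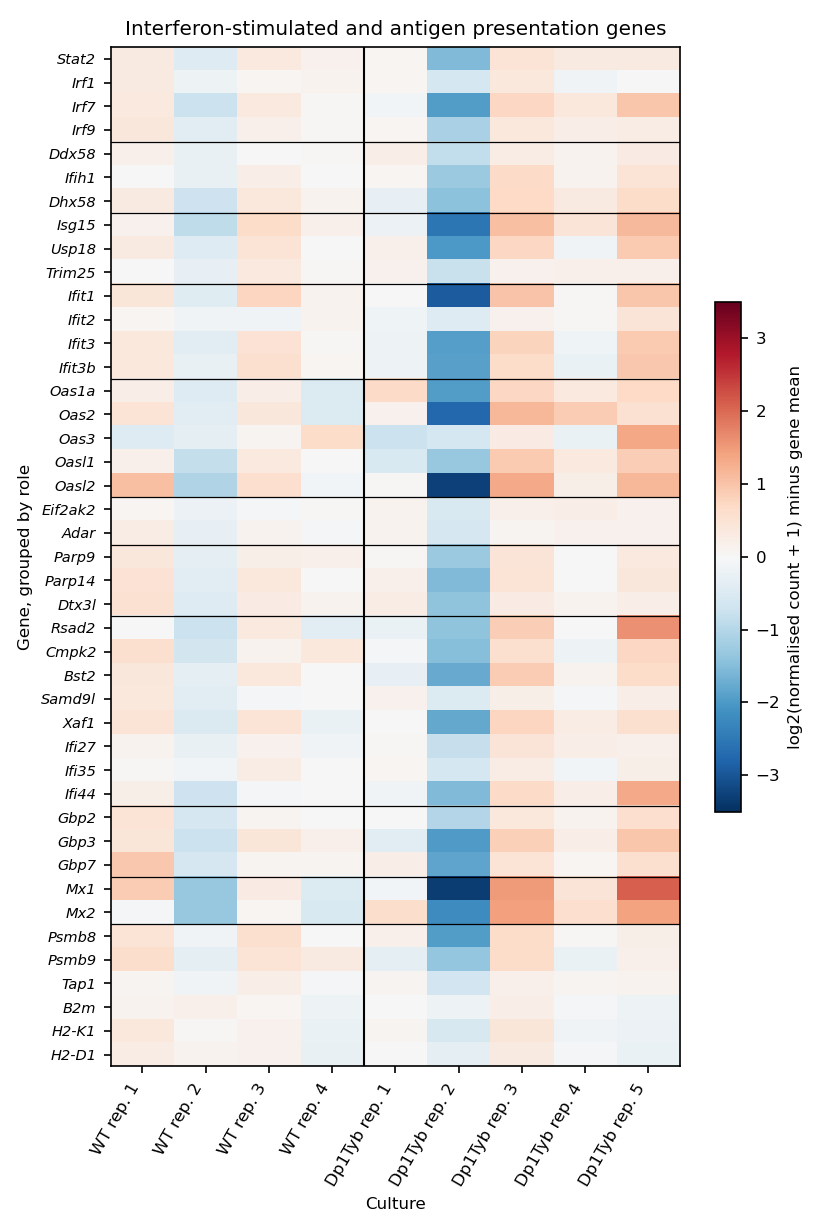
Log2 of the normalised count plus 1 of each of the 43 genes relative to its own mean over the 9 cultures, with genes in rows grouped by role and cultures in columns. Dp1Tyb replicate 2 is the lowest culture for 42 of the 43 genes, and Dp1Tyb replicates 3 and 5 are the highest for 19 and 14.

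The promoters of these genes were examined for the ISRE and the GAS, because the elements are what such genes are known to share. RefSeq promoter windows of 300 bases, from 250 before to 50 after the annotated start, were at hand for 35 of the 43 genes (GRCm38.p6). The ISRE core was searched as GAAA, any 2 bases and GAAA again, on both strands and with overlapping matches allowed. It was present for 16 of the 35 genes (45.7%), beside 3.99% of 27025 genes with a window. A longer form, the core followed by CT, so that every match also holds the core, was present for 9 of 35 (25.7%), beside 0.303%. GAS was searched as TTCNNNGAA and was also present for 9 of 35 (25.7%), beside 9.55%. A match is a description of the letters and not of bound protein. The stretches below carry the core in genes that differed widely in how low they were in Dp1Tyb replicate 2. They are read 5′ to 3′ on the strand of the gene, with every base of a core match in capitals.

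*Isg15*, *Ifit1*, *Oas1a*, *Gbp3* and *Bst2* are shown for their overlapping or neighbouring cores, *Ifit3* and *Ifit3b* because their stretches are identical, and *B2m* because it holds the core and yet varied least.
Isg15 (chr4:156200850-156200921, minus strand): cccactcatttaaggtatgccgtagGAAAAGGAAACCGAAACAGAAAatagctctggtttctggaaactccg
Ifit1 (chr19:34640760-34640838, plus strand): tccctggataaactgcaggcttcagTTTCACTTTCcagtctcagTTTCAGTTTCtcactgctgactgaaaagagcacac
Oas1a (chr5:120907526-120907570, minus strand): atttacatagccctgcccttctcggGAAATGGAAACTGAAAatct
Gbp3 (chr3:142559974-142560039, plus strand): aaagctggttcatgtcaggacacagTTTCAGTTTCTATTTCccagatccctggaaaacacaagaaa
Bst2 (chr8:71537562-71537627, minus strand): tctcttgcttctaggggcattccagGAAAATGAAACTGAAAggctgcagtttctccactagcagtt
Ifit3 (chr19:34583348-34583441, plus strand): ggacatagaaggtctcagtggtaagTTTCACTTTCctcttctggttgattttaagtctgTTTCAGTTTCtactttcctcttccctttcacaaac
Ifit3b (chr19:34607744-34607837, plus strand): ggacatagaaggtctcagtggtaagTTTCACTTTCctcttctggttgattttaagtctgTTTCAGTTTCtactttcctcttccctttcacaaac
B2m (chr2:122147523-122147582, plus strand): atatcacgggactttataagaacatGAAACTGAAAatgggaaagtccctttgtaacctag
In *Isg15* there are 3 overlapping cores, which begin 78, 72 and 66 bases before the start. *Oas1a* has a pair of overlapping cores, 20 and 14 bases before the start, and those of *Bst2* lie farther away, at 130 and 124 bases. The core of *B2m* begins 139 bases before the start.

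Genes with the core did not all behave alike. The 16 genes with a core had a median SD of 0.795 over the cultures, from 0.153 for *B2m* to 1.19 for *Ifit1*. The 19 genes with a window but no core had a median of 0.486, from 0.240 to 1.44. In Dp1Tyb replicate 2, genes with a core were at a median of 24.1% of the median of the other Dp1Tyb cultures, and those without at 38.7%. The ranges overlapped, and no test was made of this difference. *Oasl2*, with the highest SD among genes with a window, had no core in it.

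*Stat2* and *Irf9* encode components of the complex that binds the ISRE, and *Irf1* and *Irf7* encode transcription factors that are themselves induced by interferon. Of the 4 genes 0 were DEGs, and their log2 fold changes were between -0.13 and 0.23. *Stat2* (ENSMUSG00000040033) had 2887, 1692, 2949 and 2581 normalised counts in WT replicates 1 to 4 and 2424, 800, 3235, 2874 and 2900 in Dp1Tyb replicates 1 to 5. Both cultures numbered 2 were low, and the other 7 were between 2424 and 3235. The log2 fold change was -0.05, with a 95% interval from -0.82 to 0.73. *Irf1* (ENSMUSG00000018899) was steadier, at 881, 630, 749 and 772 normalised counts in WT and 741, 467, 917, 649 and 700 in Dp1Tyb, and the genotypes overlapped (log2 fold change -0.13, interval -0.52 to 0.26). *Irf7*, which drives the later phase of type I interferon production, was at 17.4% in Dp1Tyb replicate 2 of its median in the other Dp1Tyb cultures, the lowest share of the 4.

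*Ddx58* encodes RIG-I and *Ifih1* encodes MDA5, the sensors of viral RNA in the cytoplasm, and *Dhx58* encodes their regulator LGP2. All 3 fold changes were above 0, between 0.06 and 0.15 on the log2 scale, and 0 of the 3 genes were DEGs. Normalised counts of *Ddx58* (ENSMUSG00000040296) were 2041, 1518, 1794 and 1869 in WT and 2100, 986, 2160, 1970 and 2190 in Dp1Tyb. Apart from Dp1Tyb replicate 2, every Dp1Tyb culture was above at least 3 of the 4 WT cultures, and the fold change had an interval from -0.42 to 0.54. For *Ifih1* (ENSMUSG00000026896) they were 356, 297, 420 and 360 in WT and 373, 145, 575, 393 and 505 in Dp1Tyb (log2 fold change 0.15, interval -0.56 to 0.87). The highest and the lowest culture were again both Dp1Tyb.

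*Isg15* encodes a ubiquitin-like protein that is joined to other proteins, *Usp18* the protease that removes it, and *Trim25* a ubiquitin ligase that activates RIG-I. *Isg15* (ENSMUSG00000035692) had 959, 464, 1354 and 966 normalised counts in WT and 747, 149, 1774, 1177 and 1872 in Dp1Tyb. It thus spanned 12.5-fold among the cultures, with the lowest and the highest values in the same genotype. The log2 fold change was 0.29 (standard error 0.583), and its interval included 0 and a 1.5-fold change in both directions. *Usp18* spanned 7.71-fold and *Trim25* 2.17-fold. In Dp1Tyb replicate 2 the 3 genes were at 10.1%, 17.6% and 51.8% of the median of the other Dp1Tyb cultures.

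The *Ifit* genes encode a family of related proteins, of which IFIT1 binds viral RNA lacking host cap marks and stops its translation. The log2 fold changes of these genes were close to 0, from -0.08 to 0.05, and 0 of 4 were DEGs. *Ifit3* (ENSMUSG00000074896) had 800, 476, 880 and 631 normalised counts in WT and 545, 162, 1068, 557 and 1164 in Dp1Tyb. Its log2 fold change was 0.01, with an interval from -1.03 to 1.04, so changes within that range are not excluded in either direction. *Ifit2* (ENSMUSG00000045932) varied far less, at 744, 654, 660 and 781 in WT and 645, 522, 796, 732 and 979 in Dp1Tyb. Its interval of -0.31 to 0.41 lies within 1.5-fold in both directions, that is within 0.58 on the log2 scale. *Ifit1* went from 81.2 in Dp1Tyb replicate 2 to 1217 in Dp1Tyb replicate 3, a span of 15.0-fold. Reads with several alignments were discarded before counting, so the counts of *Ifit3* and of its near copy *Ifit3b* are uncertain.

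The *Oas* genes encode 2′-5′-oligoadenylate synthetases, which activate RNase L when they bind double-stranded RNA, and the *Oasl* genes encode related proteins. This was the family with all 5 fold changes above 0, from 0.17 to 0.41 on the log2 scale, though 0 of 5 were DEGs. *Oasl2* (ENSMUSG00000029561) had 892, 208, 647 and 404 normalised counts in WT and 445, 43.3, 1080, 499 and 964 in Dp1Tyb. Its span of 24.9-fold was the largest of the 42 genes for which a span could be given, and its interval ran from -1.39 to 1.73. *Oas1a* (ENSMUSG00000052776) was at 108, 66.3, 108 and 65.1 in WT and 144, 22.7, 150, 115 and 147 in Dp1Tyb. All Dp1Tyb cultures other than replicate 2 were thus above all WT cultures, and the log2 fold change over the 9 cultures was 0.41 (interval -0.60 to 1.42). *Oas3* was the lowest of the 43 genes per length of transcript, at a mean of 0.0632 RPKM (counts divided by the total count of the culture and by the summed exon length of the gene), and *B2m* was the highest, at 750 RPKM. The members of this family resemble each other, and their counts carry the same uncertainty as those of *Ifit3*.

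*Eif2ak2* encodes PKR, the kinase that halts translation when it binds double-stranded RNA, and *Adar* encodes the enzyme that edits adenosine to inosine in such RNA. Both are expressed without interferon and varied little. *Eif2ak2* (ENSMUSG00000024079) had 1780, 1492, 1626 and 1761 normalised counts in WT and 1873, 1171, 1926, 2006 and 1906 in Dp1Tyb. As for *Oas1a*, the Dp1Tyb cultures other than replicate 2 lay above all WT cultures. The log2 fold change was 0.09, with an interval from -0.24 to 0.42. *Adar* had a log2 fold change of -0.02 and an interval that also lay within 1.5-fold. An annotated gene overlaps each of them on the opposite strand, *Gm26637* over 532 bases of *Eif2ak2* and *Chrnb2* over 7252 bases of *Adar*, and the strand option of the counting is not given in the sources used here.

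*Parp9* and *Parp14* encode ADP-ribosyltransferases and *Dtx3l* the ubiquitin ligase partner of PARP9. All 3 lie on Mmu16, but outside the duplicated region, and 0 of the 3 were DEGs. *Parp9* (ENSMUSG00000022906, chr16:35938470-35972605) had 1098, 660, 967 and 943 normalised counts in WT and 859, 335, 1147, 846 and 1048 in Dp1Tyb. *Dtx3l* (ENSMUSG00000049502, chr16:35926511-35939151) had 699, 353, 585 and 527 in WT and 579, 182, 592, 526 and 565 in Dp1Tyb. The pair followed each other from culture to culture, and their log2 fold changes were -0.11 (interval -0.79 to 0.56) and -0.15 (interval -0.86 to 0.57). They overlap by 682 bases on opposite strands.

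Among the 8 other antiviral genes, 6 had a fold change above 0 and 0 were DEGs. *Bst2* (ENSMUSG00000046718), which encodes tetherin, the protein that holds budding virus at the cell surface, had 2431, 1444, 2371 and 1812 normalised counts in WT and 1510, 539, 3370, 1978 and 2840 in Dp1Tyb. Its log2 fold change was 0.02, with an interval from -0.93 to 0.98. *Rsad2* (ENSMUSG00000020641), which encodes viperin, an enzyme that makes a chain-terminating nucleotide, had 59.8, 35.2, 75.4 and 45.1 in WT and 50.2, 21.6, 109, 58.4 and 184 in Dp1Tyb. The fold change of *Rsad2*, 0.65 on the log2 scale, was the largest outside the duplication with all 9 cultures, and only Dp1Tyb replicates 3 and 5 were above every WT culture (interval -0.55 to 1.85). Without Dp1Tyb replicate 5 it was 0.15, below that of *Oas1a* at 0.31. *Cmpk2*, which lies beside *Rsad2* and makes its substrate, had a log2 fold change of -0.08. The remaining 5 genes, *Samd9l*, *Xaf1*, *Ifi27*, *Ifi35* and *Ifi44*, had log2 fold changes between -0.05 and 0.50.

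The guanylate-binding proteins are GTPases that attack the membranes around intracellular pathogens and respond strongly to interferon gamma. *Gbp2* (ENSMUSG00000028270) had 594, 280, 452 and 419 normalised counts in WT and 427, 206, 546, 457 and 631 in Dp1Tyb. Normalised counts of *Gbp7* (ENSMUSG00000040253) were 529, 181, 294 and 291 in WT and 320, 74.7, 380, 286 and 402 in Dp1Tyb. WT replicate 1 was the highest culture for *Gbp7* and Dp1Tyb replicate 5 for *Gbp2* and *Gbp3*. The log2 fold changes were 0.05 (interval -0.63 to 0.74) for *Gbp2*, -0.15 (interval -1.14 to 0.84) for *Gbp7* and 0.11 for *Gbp3*, and 0 of the 3 were DEGs.

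*Mx1* and *Mx2* encode dynamin-like GTPases that restrict influenza and other viruses, and in most laboratory strains both genes carry mutations that disable the protein. They lie within the duplication and had the largest fold changes of the 43 genes with all 9 cultures, although neither was a DEG. *Mx2* (ENSMUSG00000023341, chr16:97535308-97560900) had 123, 50.8, 134 and 89.1 normalised counts in WT and 198, 27.1, 348, 193 and 341 in Dp1Tyb. Dp1Tyb replicate 2 was below every WT culture and the other 4 Dp1Tyb cultures were above every WT culture. The log2 fold change was 1.15 (standard error 0.588, interval -0.16 to 2.47), and its unadjusted p in the edgeR fit across all genes, 0.0792, was the lowest of the 43 genes. *Mx1* (ENSMUSG00000000386, chr16:97447035-97462907) was much lower, at 37.4, 7.25, 24.4 and 14.0 in WT and 18.3, 1.08, 57.0, 27.5 and 87.6 in Dp1Tyb. The value of 1.08 stands for a single read, below the 3 counts taken as the floor, and WT replicate 2 had 7 reads. The log2 fold change of *Mx1* was 0.87 (standard error 0.818, interval -0.96 to 2.70), and it was 0.31 without Dp1Tyb replicate 5.

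Since most of the genes were low or high in the same cultures, the 2 *Mx* genes were also placed relative to the mean log2 level of the 41 genes outside the duplication in the same culture, with the WT mean set to 0. On this scale *Mx2* was at 0.13, -0.41, 0.30 and -0.02 in WT and at 1.14, -0.32, 1.39, 0.99 and 1.38 in Dp1Tyb, a difference in means of 0.92. In Dp1Tyb replicates 1, 3, 4 and 5 it was above every WT value, and in Dp1Tyb replicate 2 it was within the WT range. *Mx1* was at 0.78, -0.73, 0.22 and -0.28 in WT and at 0.12, -1.74, 1.13, 0.56 and 1.76 in Dp1Tyb, and the genotypes overlapped (difference 0.37). For the 41 genes, each taken relative to the others in the same way, the differences ran from -0.41 to 0.46. These values are descriptions, and no test was made of them.

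**Figure D2:**
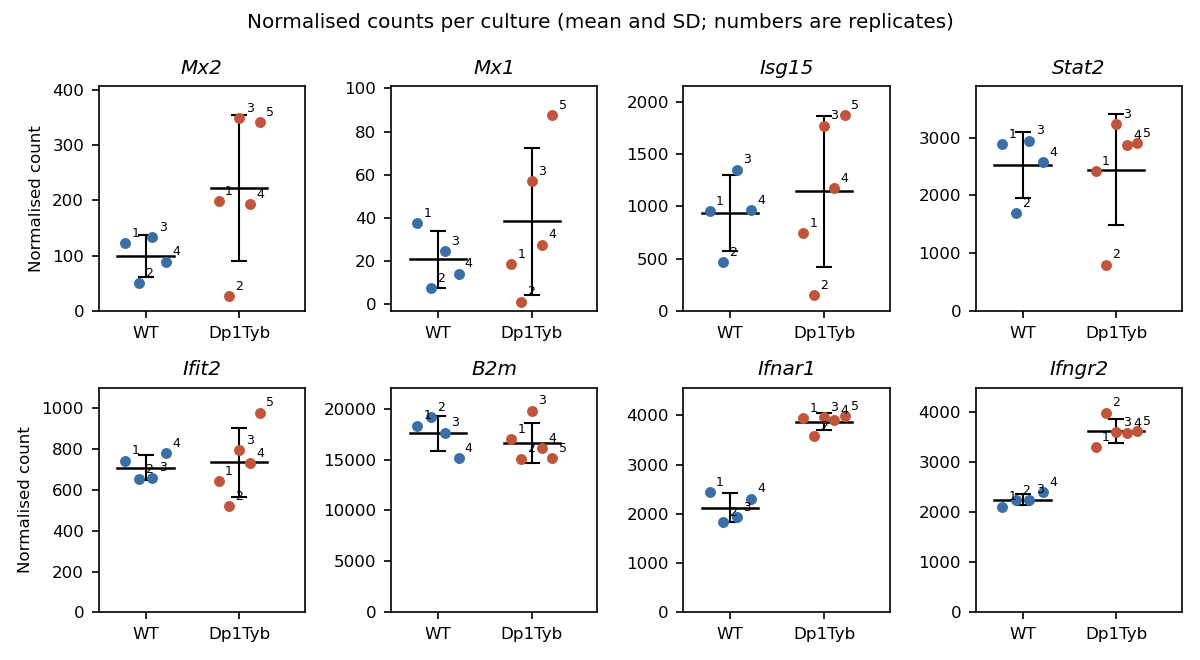
Normalised counts of 6 of the 43 genes and of 2 receptor genes in each culture, with the replicate number beside each point, the mean as a horizontal line and the SD as error bars (WT blue, n = 4; Dp1Tyb red, n = 5). *Mx2* is above all WT cultures in 4 Dp1Tyb cultures and below them in Dp1Tyb replicate 2, whereas *Ifnar1* and *Ifngr2* are separated between the genotypes in all cultures.

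Antigen presentation on MHC class I needs the heavy chains, here *H2-K1* and *H2-D1*, the light chain beta-2 microglobulin (*B2m*), the peptide transporter subunit *Tap1* and the immunoproteasome subunits *Psmb8* and *Psmb9*. All 6 fold changes were below 0, from -0.40 to -0.06 on the log2 scale, and 0 of 6 were DEGs. *B2m* (ENSMUSG00000060802) had 18329, 19159, 17635 and 15108 normalised counts in WT and 17010, 15082, 19801, 16112 and 15104 in Dp1Tyb. It was the steadiest of the 43 genes, spanning 1.31-fold, and its interval of -0.32 to 0.17 lay within 1.5-fold in both directions. *Psmb9* (ENSMUSG00000096727) had 70.6, 36.3, 63.1 and 56.1 in WT and 35.7, 17.3, 71.0, 38.5 and 51.9 in Dp1Tyb. Its log2 fold change of -0.40 was the lowest of the 43 genes, with an interval from -1.21 to 0.42. *Psmb9* and *Tap1* share 212 bases on opposite strands. The intervals of 4 of these 6 genes lay within 1.5-fold in both directions. Heavy chain genes resemble each other and other class I genes, so their counts are uncertain in the same way as those of the *Ifit* genes.

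Taking all 43 genes, the interval lay within 1.5-fold in both directions for 13, and its upper bound was below a 1.5-fold increase for 17. For the other 26 genes an increase of 1.5-fold in Dp1Tyb MEFs was within the interval. Normalised counts of all 43 overlapped between the genotypes, where 1.36% of all genes tested did not overlap.

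**Figure D3:**
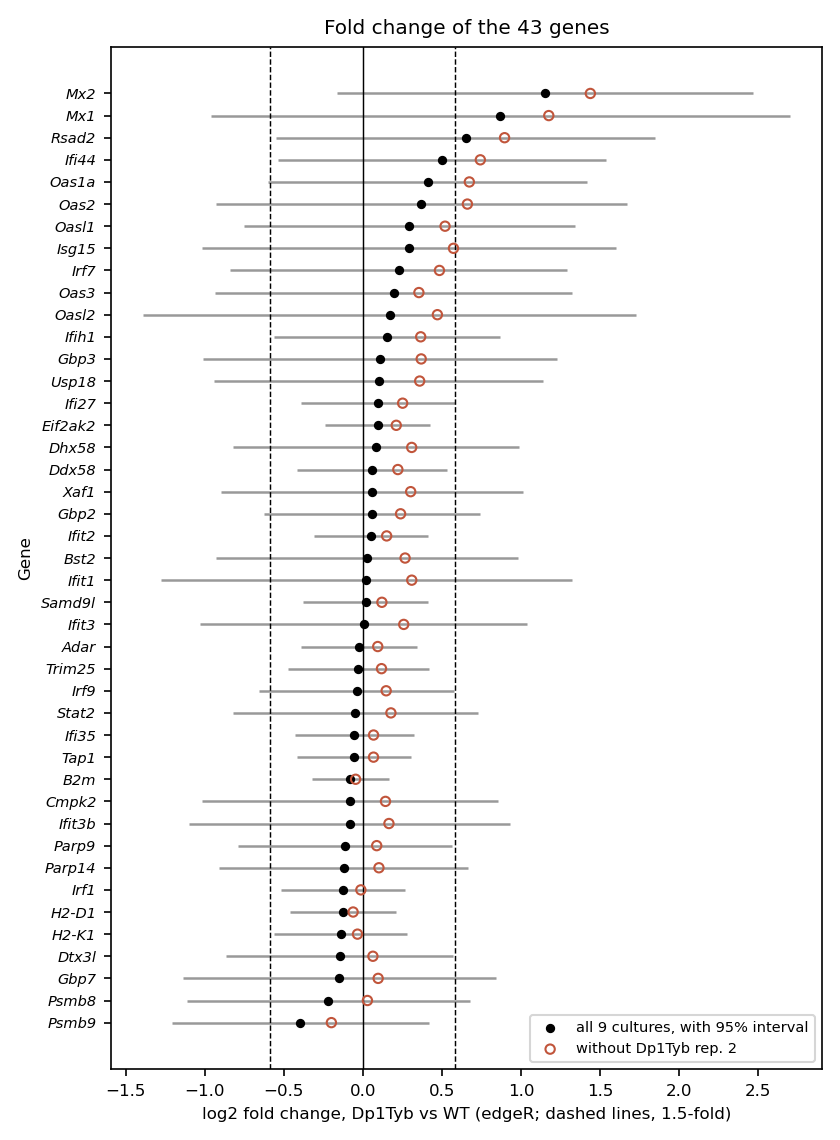
Log2 fold change of each of the 43 genes in Dp1Tyb vs WT MEFs with its 95% interval (black, 9 cultures) and without Dp1Tyb replicate 2 (open circles), in order of fold change. All 43 intervals include 0, and 25 fold changes are above 0 with all cultures and 38 without Dp1Tyb replicate 2, the lowest culture for 42 of the genes.

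Because Dp1Tyb replicate 2 stood apart, the comparison was repeated without it. This culture was lowest for 42 of the 43 genes, so leaving it out raises most of their fold changes by that choice alone. Over all genes tested it was lowest for 27.0%, so the all-gene shares given beside the counts are not a like reference. Again 0 of the 43 genes were called, against a background of 0.179%, but 38 of 43 fold changes were then above 0, and the median over the 41 genes outside the duplication was 0.21, beside -0.01 over all genes tested. Unadjusted p-values were below 0.05 for 6 genes, *Mx2*, *Oas1a*, *Eif2ak2*, *Ddx58*, *Ifi44* and *Ifih1*, where 4.37% of all genes tested passed. The lowest was that of *Mx2* (log2 fold change 1.44, edgeR adjusted p = 0.378). Next was *Oas1a* (log2 fold change 0.67, edgeR adjusted p = 0.856). The 3 genes *Mx2*, *Oas1a* and *Eif2ak2* no longer overlapped between the genotypes, beside 2.73% of all genes tested. With WT replicate 2 also left out, the lower of the WT cultures, 0 of 43 were called (background 0.0682%), 32 fold changes were above 0 and the median outside the duplication was 0.11. Leaving out any one of the other cultures gave a median between -0.12 and 0.09, which was below 0 without WT replicate 2 (-0.11), WT replicate 4 (-0.01), Dp1Tyb replicate 3 (-0.12) or Dp1Tyb replicate 5 (-0.09).

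The sets of cultures gave different pictures as well. In the first set, a single pair of cultures on which no test can be made, 35 of the 43 genes were lower in Dp1Tyb replicate 1 than in WT replicate 1, with a median difference of -0.32 on the log2 scale over the 41 genes outside the duplication. Within the second set 31 of the 43 fold changes were above 0, the median was 0.13 and 0 genes were called.

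Upstream of these genes, the receptor subunits encoded in the duplicated region were higher in Dp1Tyb MEFs. *Ifnar1*, which encodes a subunit of the type I interferon receptor, had 2438, 1827, 1940 and 2309 normalised counts in WT and 3939, 3583, 3963, 3898 and 3991 in Dp1Tyb (log2 fold change 0.86, edgeR adjusted p = 0.0102). *Ifnar2*, its partner, rose by a log2 fold change of 0.67 (adjusted p = 0.0263), *Ifngr2* of the interferon gamma receptor by 0.68 (adjusted p = 0.0102) and *Il10rb*, shared by the interferon lambda and interleukin 10 receptors, by 0.60 (adjusted p = 0.0183). The 2 receptor subunits encoded elsewhere, *Ifngr1* and *Ifnlr1*, had log2 fold changes of 0.15 and 0.28 and were not called. With one culture left out at a time, *Ifnar1* and *Ifngr2* were called except without WT replicate 2, WT replicate 3 or Dp1Tyb replicate 5, where 0 receptor genes were. *Ifnar2* and *Il10rb* were called in these fits only without Dp1Tyb replicate 2. Within the second set of cultures 0 of the 4 were called, with log2 fold changes of 0.93 for *Ifnar1* and 0.69 for *Ifngr2* (edgeR adjusted p = 0.0584 for both), 0.69 for *Ifnar2* (0.194) and 0.59 for *Il10rb* (0.165). With a term for the replicate number in the fit, 0 of the 4 were called as well. Dp1Tyb replicate 2, lowest for 42 of the 43 target genes, was the highest of the 9 cultures for *Ifngr2* and *Il10rb* and the lowest Dp1Tyb culture for *Ifnar1* and *Ifnar2*, at 3583 and 938 normalised counts.

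The rest of the pathway was followed with a list of 74 further genes, of which 65 passed the filter. The 4 receptor genes of the duplicated region were the only ones of the 65 called. The study reported raised expression across the duplicated region as a whole, so these calls are not particular to the pathway. Among the 61 tested genes outside it 0 were called in either direction, with a median log2 fold change of -0.03. Over all genes tested 0.165% were called, so 0 of 61 is near that share and says little about the pathway. Of 9 kinases, STATs and inhibitors 6 were lowest in Dp1Tyb replicate 2. Of 26 other interferon-stimulated genes 22 were lowest in Dp1Tyb replicate 2, and of 12 genes that act in interferon induction 7 were. Of 12 tested genes of the further antigen presentation list 8 were lowest there, and of the 6 receptor genes 0 were. Over all genes tested the share lowest in this culture was 27.0%. The ligands themselves were barely seen. All 8 interferon genes on the list had at most 1 count in a culture and 4 counts in all, under the floor of 3 counts in each culture, so their expression could not be compared at this depth.

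Markers of cell types moved with these levels in part. The summed level of 12 macrophage markers was 165, 79.1, 156 and 305 CPM (counts scaled to a common library total) in WT and 28.1, 20.3, 449, 178 and 347 in Dp1Tyb. Of the 12 markers 9 were lowest in Dp1Tyb replicate 2 and 3 in Dp1Tyb replicate 1, none was at 0 in all cultures and 0 were called between the genotypes. Dp1Tyb replicates 3 and 5, highest for most of the 43 genes, also had the highest macrophage sums. Dp1Tyb replicate 1 had a macrophage sum close to that of replicate 2, while the median level of the 43 genes was 0.04 in the former and -1.42 in the latter. Fibroblast markers were abundant in all cultures, with a sum of 10 genes of 46656 to 61747 CPM in WT and 39610 to 66065 in Dp1Tyb. The lowest sum was in Dp1Tyb replicate 2, with 7 of the 10 genes lowest there. Not all went that way. *Vim* was highest in Dp1Tyb replicate 2, at 130012 normalised counts against 63246 to 126837 in the other cultures, and *Thy1* was lowest in WT replicate 1. Markers of lymphocytes (4 genes), plasmacytoid dendritic cells (4) and erythroid cells (3) had at most 3 counts in every culture, and for each of these lists 2 genes had none. Sums of 6 endothelial markers were between 5.42 and 19.1 and of 4 epithelial markers between 7.39 and 11.2 CPM. The part of these markers in the levels of the 43 genes was not tested.

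**Figure D4:**
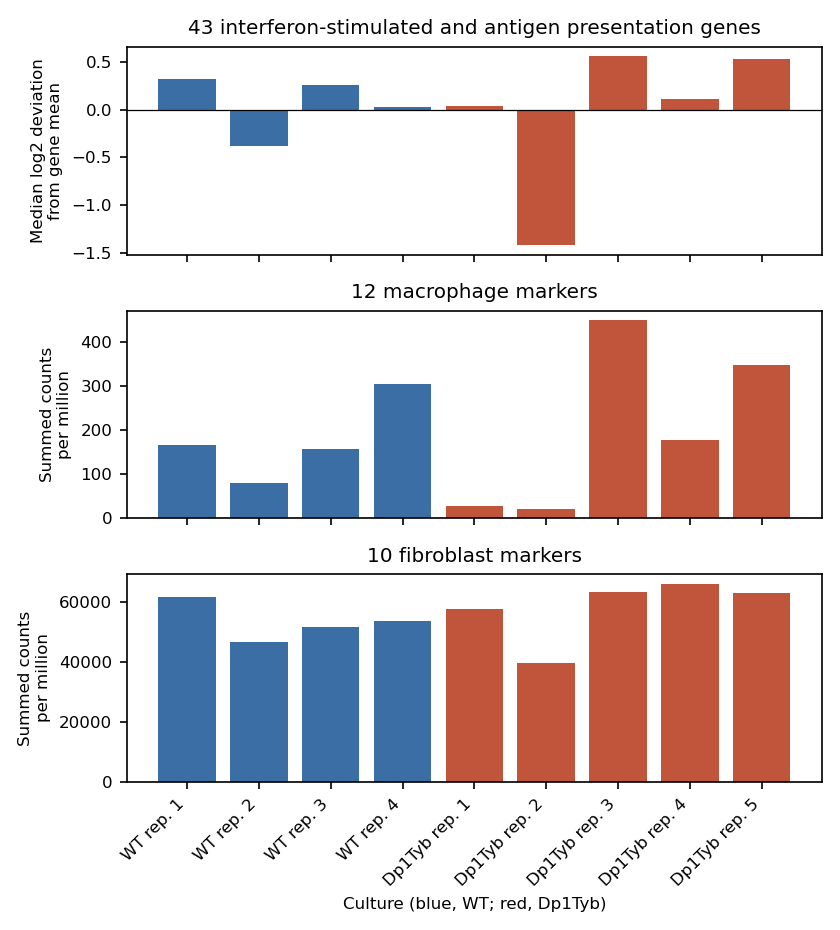
Median log2 deviation of the 43 genes from their own means (top), and summed CPM of 12 macrophage markers (middle) and 10 fibroblast markers (bottom), in each culture. Dp1Tyb replicate 2 is lowest in all 3 panels, while Dp1Tyb replicate 1 is low in the macrophage panel (28.1) and close to 0 in the panel of the 43 genes (0.04).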

How the data were processed

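The authors deposited counts per Ensembl gene for 9 MEF cultures. Per the labels and the study's methods, reads from TruSeq stranded libraries were trimmed with Trim Galore and mapped to GRCm38 with TopHat2 2.0.12, reads with several alignments were discarded and the others were counted with htseq-count. The annotation release and strand option are not given in the sources used here. The deposited size-factor-normalised counts and the authors' DESeq2 comparison (fold changes and p-values) were not used.

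Total counts were 24804539 to 30009361 per culture, and intervals cover the spread between these cultures, which each came from a different embryo. Symbols, positions and exon lengths came from GENCODE M21. Genes were tested with edgeR 4.0.16 (R 4.3.3; TMM, filterByExpr, quasi-likelihood test, two-sided, no covariate, adjusted p below 0.05), which was also tested on simulated data. DESeq2 1.42.0, other scaling and filters, the culture set, the replicate block and each culture left out were the alternatives.

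The 43 genes, the pathway and marker lists and the tests were chosen with earlier results of these data known. Given in full were *Mx1*, *Mx2*, any gene called, and in each role group the genes with the highest RPKM and the smallest p. Single genes or cultures named beyond this were chosen after their values were seen. The run without both cultures numbered 2 was added after seeing the data.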

Additional observations from a re-analysis of the deposited data

Results flagged for a closer look

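In 8 of 96 groups of cultures examined, a single culture lay far from the others of its genotype, with a gap to its nearest neighbour that exceeded Dixon's 95% critical value for the range of the group. Chance gives about 1 such group in 20 where groups are independent. The groups here are not, since their genes vary together in the same 9 cultures, so the count cannot be set against that rate. All 8 were the low value of Dp1Tyb replicate 2, and none was in WT. For the RNA sensor *Ddx58* it had 986 normalised counts, for the ubiquitin ligase *Trim25* 1477 and for the oligoadenylate synthetase *Oas1a* 22.7. The kinase gene *Eif2ak2* was at 1171 and the editing enzyme gene *Adar* at 1043. *Dtx3l*, the partner of *Parp9*, was at 182, and the peptide transporter gene *Tap1* at 675. The receptor gene *Ifnar1*, within the duplicated region, was at 3583, which was still above every WT culture. The macrophage and fibroblast marker sums of this culture, 20.3 and 39610 CPM (counts scaled to a common library total), were the lowest of the 9, though *Vim* of the fibroblast list was highest there. The part of these markers in the flagged values was not tested.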

How the results depend on the processing

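In every alternative run, 0 of the genes tested among the 43 were called in either direction. These were 40 under the stricter filter of 10 counts per culture, which dropped *Mx1*, *Oas2* and *Oas3*, and 42 without Dp1Tyb replicate 3 or 5, which dropped *Oas3*. The median log2 fold change outside the duplication was between -0.12 and 0.21 with one culture left out. The number of further pathway genes called fell from 4 to 0 within the second set of cultures and to 0 with the replicate block, and was 0 to 4 with one culture left out (0 without WT replicate 2, WT replicate 3 or Dp1Tyb replicate 5, and 2 without WT replicate 1, WT replicate 4 or Dp1Tyb replicates 1, 3 or 4). The cause was not tested. The longer ISRE form lowered the share of promoters with a match from 45.7% to 25.7%. Signs of log2 fold changes turned for *Stat2* in the second set (0.0265) and without both cultures numbered 2 (0.0267), for *Gbp7* in the second set (0.16) and for *Ifit3* with the culture set as a covariate (-0.0033). With the replicate block they turned for *Ddx58* (-0.0551), *Ifih1* (-0.0706), *Isg15* (-0.26), *Ifit3* (-0.46), *Ifit2* (-0.0884), *Oasl2* (-0.41), *Bst2* (-0.35) and *Gbp2* (-0.13). Those of *Mx2* (0.68), *Mx1* (0.0935), *Oas1a* (0.14) and *Rsad2* (0.0259) were smaller under the block, and those of the receptor genes were 0.86 for *Ifnar1*, 0.63 for *Ifnar2*, 0.68 for *Ifngr2* (edgeR adjusted p = 0.0736 for these 3) and 0.59 for *Il10rb* (0.104). Under the block 7 of 43 fold changes were above 0, the median outside the duplication was -0.17 and 0 of all genes tested were called (802 with an unadjusted p below 0.05). The block fits a level for each replicate number. No WT culture is numbered 5, so Dp1Tyb replicate 5 adds nothing to the genotype effect in that fit. Leaving out Dp1Tyb replicate 5 alone gave 11 of 42 fold changes above 0 and a median of -0.09. Same-numbered cultures correlated in their deviations at 0.247, 0.732, 0.0299 and 0.382, and 1 of 4 WT cultures correlated best with its own number. The main fit had no pairing term. These values cannot show that no pairing exists, since the cultures numbered 1 share a set and those numbered 2 correlated at 0.732. With one culture left out, log2 fold changes turned sign for *Stat2* (-0.20 to 0.18), *Ddx58* (-0.0152 to 0.22), *Ifih1* (-0.016 to 0.37), *Ifit3* (-0.26 to 0.26), *Ifit2* (-0.0752 to 0.15), *Oasl2* (-0.14 to 0.53), *Parp9* (-0.25 to 0.0874), *Dtx3l* (-0.30 to 0.0633), *Bst2* (-0.23 to 0.27), *Gbp2* (-0.11 to 0.24) and *Gbp7* (-0.34 to 0.20). *Mx2* was between 0.93 and 1.44, *Mx1* between 0.31 and 1.32 and *Rsad2* between 0.15 and 0.90. Of the 23 genes not given in full, 10 turned sign with the block and 4 in the second set.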

Other observations

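Some genes of the wider pathway list went the other way in Dp1Tyb replicate 2. They included *Calr*, *Canx* and *Pdia3*, which encode general chaperones of the endoplasmic reticulum that also act on class I molecules. *Tapbp*, which encodes tapasin, the chaperone dedicated to class I loading, did not and was lowest in that culture, at 1507 normalised counts against 2241 to 3728 in the other 8. *Calr* (calreticulin) had 28789, 42668, 38076 and 36549 normalised counts in WT and 34126, 48090, 36133, 37409 and 36219 in Dp1Tyb. *Canx* (calnexin) was at 32576 in Dp1Tyb replicate 2, with the other 8 cultures between 19479 and 27444. *Pdia3* (a disulfide isomerase) was highest in Dp1Tyb replicate 2 at 38566, close to WT replicate 2 at 38444. The heavy chain genes *H2-K1* and *H2-D1* were lowest in Dp1Tyb replicate 2, at 1769 and 3326, with WT replicate 4 next at 2252 and 3495. The light chain gene *B2m* was nearly level, at 15082 in Dp1Tyb replicate 2, 15104 in Dp1Tyb replicate 5 and 15108 in WT replicate 4. Among interferon-stimulated genes, *Irgm1*, an immunity-related GTPase, was highest in Dp1Tyb replicate 2 at 2145, while its relatives *Irgm2* and *Igtp* were lowest there at 156 and 50.9. These genes were chosen after their values were seen, and no test was made.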
